A study of Homo sapiens with 6 samples.

Results

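Among the genes that Hep G2 cells already expressed without added EFTUD2, 12 had every EFTUD2 library well above every control library: LCN2, TGM2, CES1, ITIH3, ADAMTSL4, CD55, IFITM2, GPX3, SERPINA3, AVPI1, SOD2 and LRG1. They were chosen by their own levels. The 3 controls had to average at least 5 FPKM, and the lowest EFTUD2 library had to exceed 1.5 times the highest control. FPKM divides the fragments of a gene by the length of its transcript and the size of the library. Of 8633 genes with a numbered identifier and that control level, 17 met the rule, which is 0.197%. EFTUD2 itself, C4BPA, CFB, HP and IFITM1 were among them and were left out beforehand, which left the 12. The mirrored rule, with every control above 1.5 times every EFTUD2 library, was met by 13 genes, or 0.151%.

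Hep G2 is a human hepatocellular carcinoma cell line, and the libraries come from cells stably infected with a lentivirus that carried either an empty vector (control, 3 libraries) or EFTUD2 (3 libraries). EFTUD2 encodes a GTPase of the U5 small nuclear ribonucleoprotein, a core part of the spliceosome. The study's methods describe selection in puromycin for its stably transfected cells. The labels do not say whether the libraries of a group came from separate infections or cultures, so their spread may be technical. The level of EFTUD2 was 41.1, 54.4 and 46.3 FPKM in the controls and 107, 103 and 109 FPKM in the EFTUD2 libraries, a ratio of means of 2.25.

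Liver cells secrete most plasma proteins, and during inflammation interleukin 6 and interleukin 1 raise a group of them called acute-phase proteins through STAT3, C/EBP and NF-kB. The same cells carry proteins on their surface that protect them from complement and enzymes that remove oxidants and hydrolyse esters. By known function, LCN2, SERPINA3, LRG1 and ITIH3 encode secreted proteins of the acute phase, TGM2 and ADAMTSL4 act on the extracellular matrix, CD55 and IFITM2 belong to innate defence, and SOD2, CES1 and the secreted GPX3 are enzymes.

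EFTUD2 replicate 3 stood apart from the other libraries. The SD of the log2 difference over 17224 genes was 0.51 and 0.60 between it and the other EFTUD2 libraries, against 0.21 to 0.36 for the other pairs within a group. No gene of the whole table passed limma on log2(FPKM + 1) at a Benjamini-Hochberg adjusted p under 0.05 (0 of 17224, 0%). At an unadjusted p under 0.05 there were 2118 genes, 757 higher and 1361 lower with EFTUD2. Without EFTUD2 replicate 3, limma called 167 genes, 153 higher and 14 lower. With the libraries scaled by the median of their ratios, the unadjusted split became 1122 higher and 848 lower. The study itself reported significant differential expression for the same comparison, and its RNA sequencing methods name no test. Since the rule used all 6 libraries of this contrast, no test is given for the 12 genes, and their levels are described as they were chosen.

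**Figure D1:**
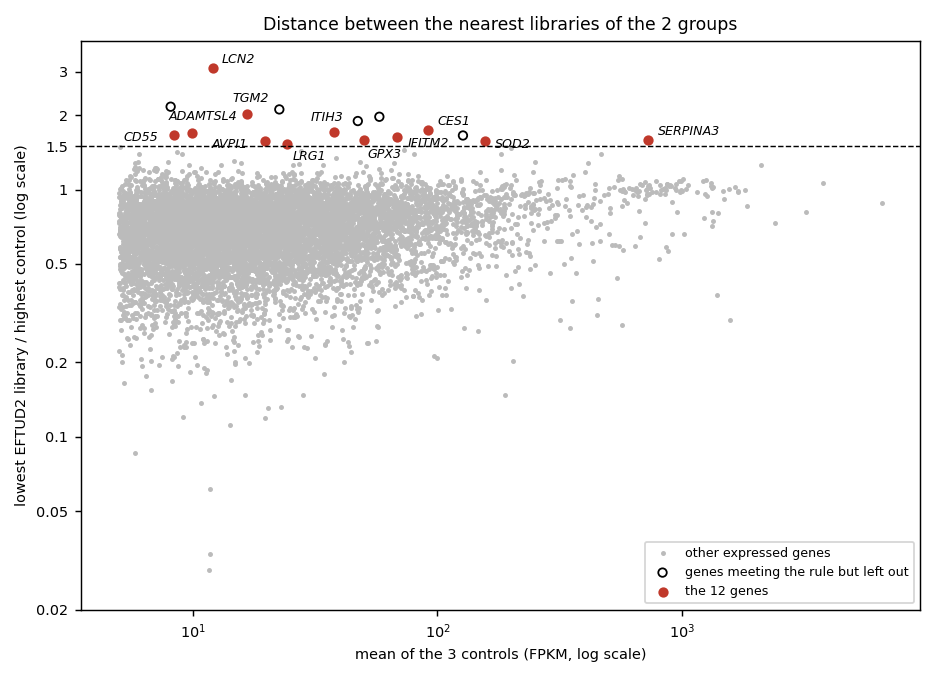
Lowest EFTUD2 library divided by the highest control (vertical, log scale) against the mean of the controls in FPKM (horizontal, log scale) for 8633 expressed genes, with the chosen genes in red, the genes left out as open circles and the threshold of 1.5 dashed. LCN2 lies highest at 3.09, and most other genes lie below 1, with a median of 0.70.

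The promoters of 9 of the 12 genes were in the RefSeq promoter table (GRCh38.p14, 250 bases before to 50 bases after each start), with 4 windows for SOD2 and so 12 windows in all. The stretches shown here are a selection that covers each match to STAT, NF-kB, C/EBP and the cyclic AMP element, with 1 example each of clustered GC and CCAAT boxes, each stretch 5′ to 3′ on the strand of its gene, with the matches in capitals. LCN2 (chr9:128149258-128149336, plus strand) is shown for its NF-kB match, read on the opposite strand, and its C/EBP match (TTGCNNAA). LRG1 (chr19:4540084-4540218, minus strand) is shown for the STAT match (TTCNNNGAA), the only one among the 12 windows, and an NF-kB match. AVPI1 (chr10:97687457-97687491, minus strand) holds the cyclic AMP response element (TGACGTCA). ADAMTSL4 (chr1:150549328-150549383, plus strand) holds 4 GC boxes (GGGCGG) and GPX3 (chr5:151020495-151020559, plus strand) a pair of CCAAT boxes on the opposite strand.
LCN2: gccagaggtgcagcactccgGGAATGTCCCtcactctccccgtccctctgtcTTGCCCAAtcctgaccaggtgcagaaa
LRG1: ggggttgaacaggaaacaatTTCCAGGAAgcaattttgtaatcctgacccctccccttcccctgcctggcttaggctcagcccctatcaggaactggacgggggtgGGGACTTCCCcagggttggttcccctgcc
AVPI1: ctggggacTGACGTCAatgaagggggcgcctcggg
ADAMTSL4: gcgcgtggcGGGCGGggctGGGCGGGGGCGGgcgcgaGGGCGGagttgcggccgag
GPX3: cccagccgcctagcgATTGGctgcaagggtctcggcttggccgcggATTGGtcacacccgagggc

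Each motif was searched on both strands, and its share of all 35116 windows of the same length is the background. STAT letters were in 7.66% of all windows, NF-kB letters in 5.91%, C/EBP letters in 10.5% and the cyclic AMP element in 1.85%. In the windows of expressed genes that were not chosen, these shares were 5.9%, 6.74%, 7.16% and 3.1%. A match is a description of the sequence and not evidence that a factor binds there. The NF-kB match of LCN2 shares letters with a TEAD match (GGAATG), and its C/EBP match shares letters with a CCAAT box. TEAD letters were also in ITIH3, and they were in 11.5% of the windows of expressed genes that were not chosen. GC boxes were in 8 of the 12 windows, from 5 genes, against 44.95% of all windows and 68.4% of the 10491 windows of such expressed genes. CCAAT boxes were in 5 windows of 4 genes, against 34.6% of all. Letters of AP-1 (TGACTCA or TGAGTCA), of the interferon-stimulated response element (TTCNNTTTC), of the TATA box (TATAAA), of the E-box (CACGTG) and of HNF1 (GTTAATNAT) were in 0 of the 12 windows, which says only that these letters are not there. The windows of the chosen genes did not share 1 motif, and their median GC content was 66.5%, against 65.3% for the windows of expressed genes.

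All 12 genes are annotated as protein-coding, and their spans are given on GRCh38.p14. LCN2 (chr9:128149453-128153453) encodes lipocalin 2, a secreted protein that binds iron-carrying siderophores and is known as an acute-phase protein. Its level was 17.0, 7.02 and 12.3 FPKM in control replicates 1 to 3 and 52.6, 82.2 and 83.8 FPKM in EFTUD2 replicates 1 to 3, the order kept for every gene that follows. The EFTUD2 libraries lay far above the controls, with replicates 2 and 3 alike and replicate 1 lower. The mean was 12.1 ± 5.0 FPKM (SD, n = 3) in the controls and 72.9 ± 17.6 FPKM (SD, n = 3) with EFTUD2, a ratio of 6.02, the largest of the 12. Even the nearest libraries of the groups differed 3.09-fold, and LCN2 and TGM2 were the only members for which that ratio exceeded 2. In bulk RNA, more cells with the transcript and more transcript per cell cannot be told apart.

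SERPINA3 (chr14:94612391-94624053), which encodes alpha-1-antichymotrypsin, an inhibitor of neutrophil proteases, had the highest level of the 12, 67th among expressed genes by control mean. It stood at 886, 366 and 930 FPKM in the control libraries and reached 1693, 1653 and 1469 FPKM in the EFTUD2 libraries. The EFTUD2 libraries were close to each other, and the spread was in the controls, where replicate 2 lay far below the other two. LRG1 (chr19:4536402-4540036), a secreted leucine-rich glycoprotein that modulates TGF-beta signalling, stood at 22.1, 21.4 and 29.6 FPKM in the control libraries and reached 45.5, 56.7 and 59.2 FPKM in the EFTUD2 libraries. Its groups were the nearest of all, 1.54-fold between EFTUD2 replicate 1 and control replicate 3. ITIH3 (chr3:52794796-52808797), a heavy chain that is linked to hyaluronan in the matrix, stood at 52.1, 18.8 and 42.4 FPKM in the control libraries and reached 89.2, 91.3 and 146 FPKM in the EFTUD2 libraries. Control replicate 2 was the lowest library for it, and EFTUD2 replicate 3 the highest.

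TGM2 (chr20:38127385-38168475) encodes tissue transglutaminase, a calcium-dependent enzyme that cross-links proteins of the matrix. Its level was 14.04, 15.5 and 20.7 FPKM in the controls and 41.8, 41.7 and 54.4 FPKM with EFTUD2. In both groups replicate 3 was the highest library, and the lowest EFTUD2 library was 2.02 times the highest control. The means were 16.7 ± 3.48 and 46.0 ± 7.32 FPKM (SD, n = 3 each), a ratio of 2.75. TGM2 was also on the study's qPCR panel. The study took a part of its most significantly upregulated genes to qPCR and reports that they were borne out. Its text gives no separate result for TGM2. The primer pair is shown because it marks which end of the transcript the qPCR assay read. Both primers matched a product of 73 bases at chr20:38129848-38129920 (GRCh38), inside exon 13 of the transcript ENST00000361475.6, in the 3′ UTR.
TGM2 forward: tgccctttggaaagccattg
TGM2 reverse: tttttgcctgctccaaggag

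ADAMTSL4 (chr1:150549408-150560937), a secreted ADAMTS-like glycoprotein without protease activity that associates with fibrillin microfibrils, was among the lowest of the 12 in level. It stood at 11.1, 8.54 and 10.3 FPKM in the control libraries and reached 18.8, 21.4 and 19.2 FPKM in the EFTUD2 libraries. The 3 EFTUD2 libraries were within 1.14-fold of each other. Its ratio of means was 1.99.

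CD55 (chr1:207321678-207360966) encodes decay-accelerating factor, a membrane-anchored protein that dissociates the C3 convertases of complement. It stood at 10.2, 7.45 and 7.56 FPKM in the control libraries and reached 24.9, 43.0 and 17.0 FPKM in the EFTUD2 libraries. This was the one gene of the 12 whose EFTUD2 libraries spread by more than 2-fold: replicate 2 was 2.53 times replicate 3. Of expressed genes, 11.1% had such a spread. Without EFTUD2 replicate 3 the ratio between its nearest libraries was 2.44, and with it 1.66.

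IFITM2 (chr11:307816-309395), a membrane protein that restricts the entry of viruses and is induced by interferon, stood at 75.3, 57.7 and 72.1 FPKM in the control libraries and reached 122, 136 and 126 FPKM in the EFTUD2 libraries. The EFTUD2 libraries lay within 1.12-fold of each other, the narrowest range of the 12. IFITM1 and IFITM3 lie beside it and are close to it in sequence, so reads could be divided among them and its level is uncertain.

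SOD2 (chr6:159669069-159762281), the manganese superoxide dismutase of mitochondria, stood at 157, 151 and 163 FPKM in the control libraries and reached 256, 295 and 380 FPKM in the EFTUD2 libraries. The controls agreed within 1.08-fold, whereas the EFTUD2 libraries spread 1.49-fold with replicate 3 highest. Its annotated span overlaps WTAP and ACAT2, whose ratios of means were 0.83 and 1.07. GPX3 (chr5:151020591-151028988), the secreted selenium-dependent glutathione peroxidase of plasma, stood at 38.8, 51.5 and 59.9 FPKM in the control libraries and reached 94.8, 130 and 124 FPKM in the EFTUD2 libraries. Replicate 1 was the lowest library in both groups.

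CES1 (chr16:55802851-55833096), the main carboxylesterase of liver, hydrolyses esters of drugs and lipids. It stood at 70.2, 117 and 87.4 FPKM in the control libraries and reached 203, 318 and 325 FPKM in the EFTUD2 libraries. Replicate 1 was again the lowest of each group, and the ratio of means was 3.08. A pseudogene of very similar sequence exists for CES1, so reads shared with it could affect the value. AVPI1 (chr10:97677424-97687241), named for its induction by vasopressin, stood at 18.7, 20.4 and 20.4 FPKM in the control libraries and reached 32.1, 43.7 and 40.6 FPKM in the EFTUD2 libraries. The controls were within 1.09-fold of each other, and EFTUD2 replicate 1 was the lowest of its group.

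**Figure D2:**
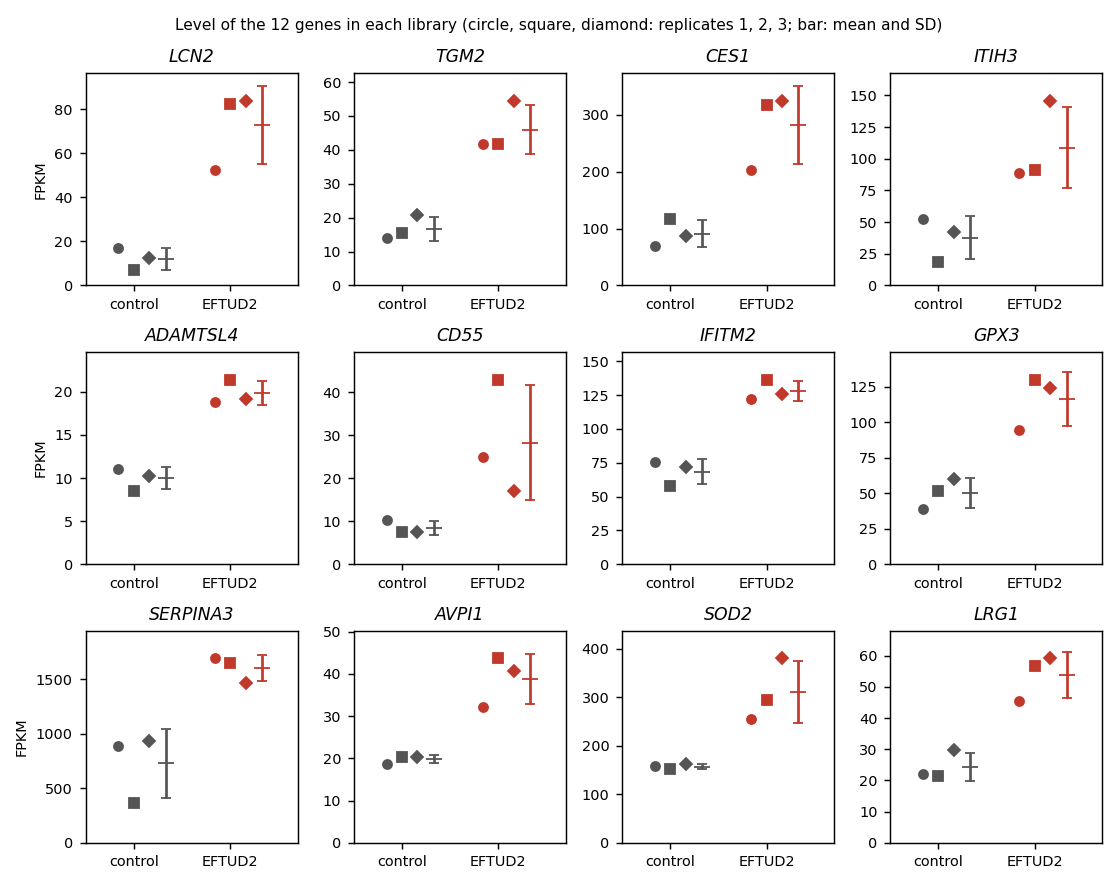
FPKM (vertical, from 0) of each gene in each library, controls in grey and EFTUD2 in red, with circles, squares and diamonds for replicates 1, 2 and 3 and a bar for the mean and SD (n = 3). In every panel the EFTUD2 libraries lie above the controls, as the selection required, with the controls of SERPINA3, ITIH3 and LCN2 spread more than 2-fold.

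On the log2(FPKM + 1) scale the differences ran from 0.91 for IFITM2 (SE 0.13) to 2.54 for LCN2 (SE 0.32), and the SE was largest for ITIH3, at 0.39. Over the 12 genes the median ratio of means was 2.27, against 0.90 over all 8633 expressed genes. These ratios were selected on and support nothing by themselves. Just inside the threshold of 1.5 were LRG1 at 1.54, SOD2 and AVPI1 at 1.57 and SERPINA3 at 1.58. Just outside it were NME1-NME2 at 1.49, B2M (the light chain of MHC class I) at 1.48, C2 (a complement protease) at 1.45 and CD9 (a tetraspanin) at 1.43.

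The rule bounds the EFTUD2 libraries from below and sets no upper limit on them. Since it used all of them, their order is given as a description. EFTUD2 replicate 1 was the lowest of the 3 for 9 of the 12 genes, replicate 3 for 2 (CD55 and SERPINA3) and replicate 2 for 1 (TGM2). The highest library was replicate 3 for 6 genes, replicate 2 for 5 and replicate 1 for SERPINA3. Among the 473 expressed genes with every EFTUD2 library above every control, replicate 3 was the highest in 67.4%, replicate 2 in 25.8% and replicate 1 in 6.77%. Over all expressed genes these shares were 27.7%, 47.3% and 25.0%. Shares for the lowest EFTUD2 library were not counted, so the 9 of 12 has no background here. The ratio of replicate 3 to replicate 2 had a median of 0.99 over the 12 genes, from 0.40 for CD55 to 1.6 for ITIH3.

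**Figure D3:**
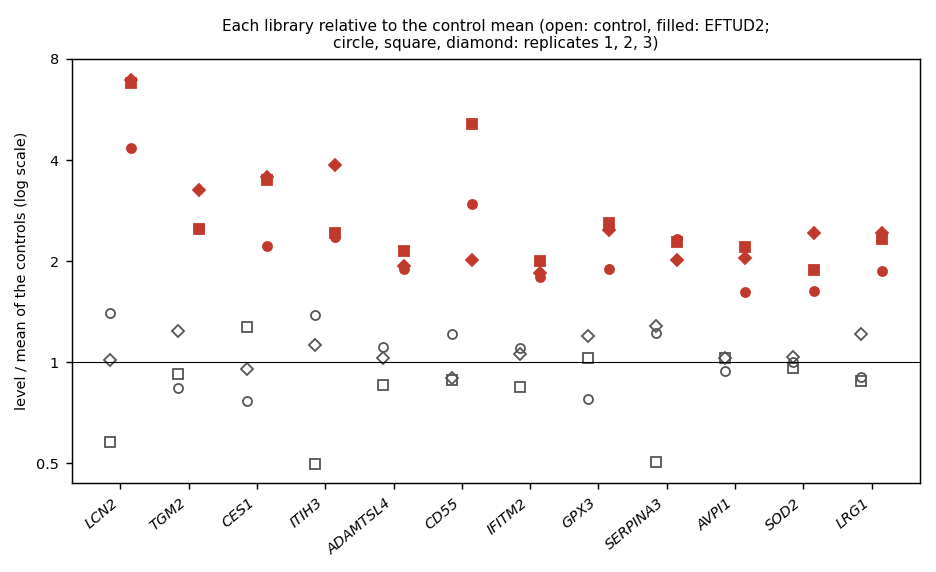
Level of each gene in each library divided by its control mean (vertical, log scale), open symbols for controls and filled for EFTUD2, with circles, squares and diamonds for replicates 1, 2 and 3. LCN2 reached 4.34 to 6.92 in the EFTUD2 libraries, and replicate 3 was the lowest filled symbol for CD55 and for SERPINA3, at 2.02 in both.

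Control replicate 2 was the lowest control for 8 of the 12 genes, whereas it was the lowest for 27.1% of expressed genes. The controls differed by more than 2-fold for LCN2, ITIH3 and SERPINA3, each with replicate 2 lowest, and for 2.25% of expressed genes. Control replicate 2 was likewise the lowest for 16 of 20 expressed genes of a hepatocyte marker list and 13 of 14 coagulation genes, but for 0 of 25 genes of S phase and mitosis. These lists were picked after their counts were seen. The summed level of the hepatocyte markers was 12077 to 17829 FPKM in the controls and 15713 to 22628 FPKM with EFTUD2, ranges that overlap. Its part in the levels of the 12 genes was not tested. Without control replicate 2 the nearest-library ratio stayed the same for 11 of the 12, since that library was their highest control for none of them, and it was 2.32 in place of 1.74 for CES1.

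Defining markers of fibroblasts and leukocytes were low. Of 13 fibroblast markers, only the smooth-muscle actin ACTA2 had a control mean of at least 5 FPKM, COL1A2 was listed at 0 throughout, and DCN did not exceed 0.04 FPKM. COL1A1 stood at 0.15, 0.09 and 0.10 FPKM in the control libraries and at 0.78, 2.05 and 0.11 FPKM in those with EFTUD2. COL3A1 was listed at 0 in all controls and at 0.62, 1.49 and 0.14 FPKM with EFTUD2, and LUM was at 0.01 FPKM at most in the controls and at 0.35, 0.56 and 0.01 FPKM with EFTUD2. The summed level of the 13 was 27.0 to 38.8 FPKM in the controls and 46.6 to 90.3 FPKM with EFTUD2. VIM (the intermediate filament protein vimentin), on this list, stood at 0.06, 0.08 and 0.12 FPKM in the control libraries and reached 23.2, 59.6 and 2.87 FPKM in the EFTUD2 libraries. PTPRC, the leukocyte marker CD45, was at 0.02 FPKM at most, and TYROBP was listed at 0, while the summed macrophage list, nearly all of it lysozyme (LYZ), was 778 to 2282 FPKM in the controls and 887 to 1751 FPKM with EFTUD2. Of 12 endothelial markers only ESAM reached the 5 FPKM floor, and the list summed to 19.7 to 20.9 FPKM in the controls and 7.38 to 13.9 FPKM with EFTUD2. The part of these cell types in the levels of the 12 genes was not tested.

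Several of the 12 genes appear on lists of known pathways. On a list of STAT3 components and acute-phase genes, 30 were expressed at this level and 4 of them were members (ITIH3, LCN2, LRG1 and SERPINA3). Of the other 26, 10 had every EFTUD2 library above every control and 3 the reverse, while over all expressed genes 473 (5.48%) were apart upward and 2305 (26.7%) downward. Between the nearest libraries these 10 differed by as little as 1.0002-fold (MYC) and at most 1.26-fold (OSMR). Without the 4 members the median log2 fold change of its 35 tested genes was 0.52, against -0.07 over all genes tested. With EFTUD2 replicate 3 left out, 18 of the 26 were apart upward, where 9.83% of expressed genes were. With libraries scaled to a common sum 6 were, where 3.99% of expressed genes were. An upward lean was not particular to this list. Of 25 cytosolic ribosomal protein genes, 11 were apart upward and 0 downward. For lysosomal genes it was 6 of 21, and for coagulation genes 4 of 14, each with 0 downward. Other lists leaned downward, with 2 up and 12 down of 40 actin cytoskeleton genes. These comparison lists are examples picked after their counts were seen. The STAT3 list and its direction were known from earlier results of these data, so neither is independent evidence.

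The complement list had CD55 as its member. Of its other 16 expressed genes, 8 were apart upward and 0 downward, against 5.48% and 26.7% of expressed genes. The median over its tested genes without CD55 was 0.56 on the log2 scale. The range was 7 to 10 genes apart upward over the other scalings and with each library left out. Of all expressed genes, 3.99% to 9.83% were apart upward in those settings. The NF-kB list had LCN2 and SOD2 as its members. None of its other 20 expressed genes was apart upward, where 5.48% of expressed genes were. Apart downward were 4 of the 20, where 26.7% of expressed genes were. The median was -0.02 over its tested genes without the members. Without control replicate 1, 5 of 19 were apart upward, where 8.02% of expressed genes were. Without EFTUD2 replicate 3, 7 of 20 were apart downward, near the 33.02% of expressed genes. Beside IFITM2, the interferon list had 2 of 15 apart upward (IFITM3 and ISG15) and 2 downward, against 5.48% and 26.7% of expressed genes. Without EFTUD2 replicate 3 the interferon list had 5 of 15 apart upward, where 9.83% of expressed genes were. C4BPA, CFB, HP and IFITM1, which met the rule but were left out by name, were on none of these 4 lists. Limma called 0 of all 17224 genes tested, so a count of 0 on each of these 4 lists was fixed in advance. TGM2 was on the lists of transglutaminases, TGF-beta targets and retinoic acid targets, and CES1, ADAMTSL4, GPX3 and AVPI1 were on none of the 35 lists.

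The background itself moved with the scaling. The genes apart upward numbered 823 and those apart downward 1308 after scaling by the median of ratios, 782 and 1381 after quantile scaling, and 346 and 2791 after scaling to a common sum. Under all 3 scalings the 12 genes still had every EFTUD2 library above every control.

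Of 70 relatives or partners of the 12 genes, a list written after the members were seen, 29 had a control mean of at least 5 FPKM. Their ratios of means ran from 0.83 (TGFBR2) to 2.63 (C4BPA), with a median of 1.24 against 0.90 over all expressed genes. Every EFTUD2 library was above every control for 11 of the 29, or 37.9%, against 5.48% of expressed genes. C4BPA and IFITM1, which meet the rule themselves and had been left out by name, are among the 11. So is C4BPB, which was added to the list last together with them. The other superoxide dismutase expressed here, the cytosolic SOD1, stood at 167, 217 and 208 FPKM in the control libraries and reached 219, 220 and 234 FPKM in the EFTUD2 libraries, a ratio of 1.14 beside 1.98 for SOD2. The glutathione peroxidases GPX1, GPX2, GPX4 and GPX7 had ratios of 0.98, 1.2, 1.04 and 0.87, beside 2.32 for GPX3. CES2 had 1.13 beside 3.08 for CES1. Among the relatives of the secreted proteins, SERPINA1 (alpha-1-antitrypsin) had 1.58 and SERPINA7 (thyroxine-binding globulin) 1.46 beside 2.21 for SERPINA3. SERPINA4, SERPINA5, SERPINA6, SERPINA10 and SERPINA11 had 1.13, 1.09, 1.17, 0.94 and 1.98. ITIH5 had 1.97 and ITIH2 1.25 beside 2.88 for ITIH3. C8G, a lipocalin of the complement system, had 1.76 beside 6.02 for LCN2. Its control mean was only 5.33 FPKM, and EFTUD2 replicate 3 (4.98 FPKM) lay below control replicate 3 (6.99 FPKM). The lipocalins AMBP, RBP4, ORM1, ORM2 and APOM had 1.3, 1.24, 1.42, 1.19 and 1.42.

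CD46 and CD59, which protect cells from complement as CD55 does, had ratios of 1.22 and 1.07, and C4BPA and C4BPB, the chains of the C4b-binding protein, had 2.63 and 1.49, beside 3.36 for CD55. IFITM3, at 246, 226 and 265 FPKM in the controls and 410, 509 and 311 FPKM with EFTUD2, had a ratio of 1.67 beside 1.88 for IFITM2, while IFITM1 had 2.59, above IFITM2. None of the transglutaminases besides TGM2, of the ADAMTSL4 relatives or of the vasopressin receptors reached 5 FPKM in the controls. No difference between a member and its relatives was tested, since the members were chosen for being high.

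**Figure D4:**
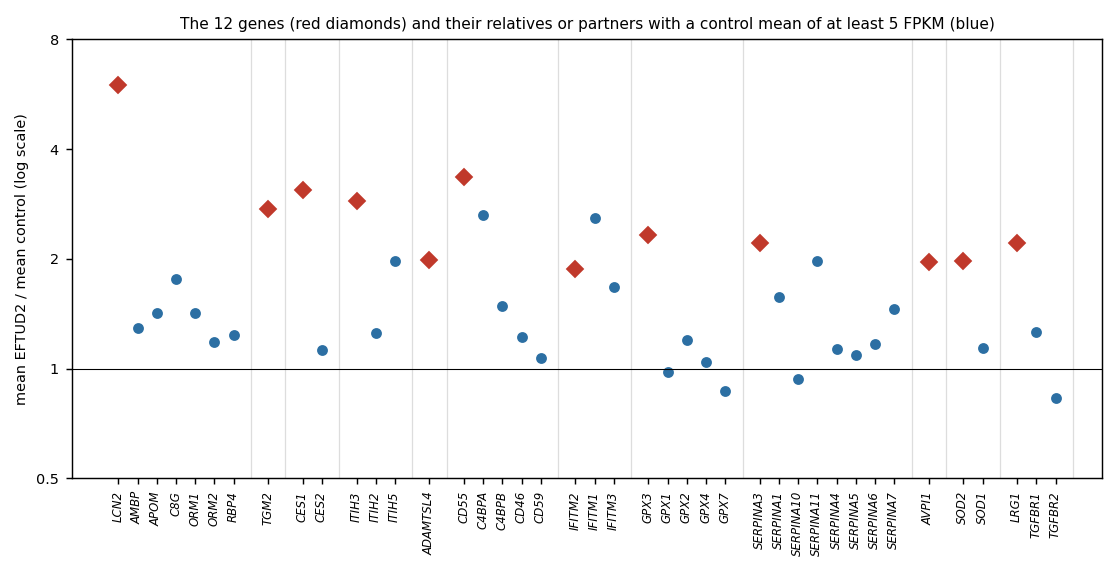
Mean of the EFTUD2 libraries divided by the mean of the controls (vertical, log scale) for each chosen gene (red diamond) and its expressed relatives or partners to its right (blue circles). The blue circles lie between 0.83 and 2.63, and that of IFITM1 lies above the diamond of IFITM2.

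The 12 genes lay on 11 chromosomes, and no 2 of them were next to each other among expressed genes. ADAMTSL4 and CD55 are both on chromosome 1, at a distance. Of the 24 expressed genes directly beside the members, 9 (37.5%) had a ratio of means above 1, against 27.5% of expressed genes, and their median ratio was 0.97, against 0.90. The rule was met by 2 of the 24, where 0.197% of expressed genes met it: C4BPA beside CD55 and IFITM1 beside IFITM2, both among the genes left out beforehand. C4BPA stood at 7.98, 7.02 and 9.39 FPKM in the control libraries and reached 20.3, 21.4 and 22.5 FPKM in the EFTUD2 libraries. IFITM1 stood at 24.1, 19.9 and 23.8 FPKM in the control libraries and reached 54.3, 70.2 and 50.7 FPKM in the EFTUD2 libraries, with EFTUD2 replicate 2 highest, as for IFITM3.

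In summed level the 12 genes came to 1373, 842 and 1455 FPKM in the controls and to 2674, 2913 and 2844 FPKM with EFTUD2, with SERPINA3 the largest contributor. Without SERPINA3 the sums were 487, 476 and 526 FPKM in the controls and 981, 1260 and 1375 FPKM with EFTUD2. Most of the gap between control replicate 2 and the other controls was therefore that of SERPINA3.

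**Figure D5:**
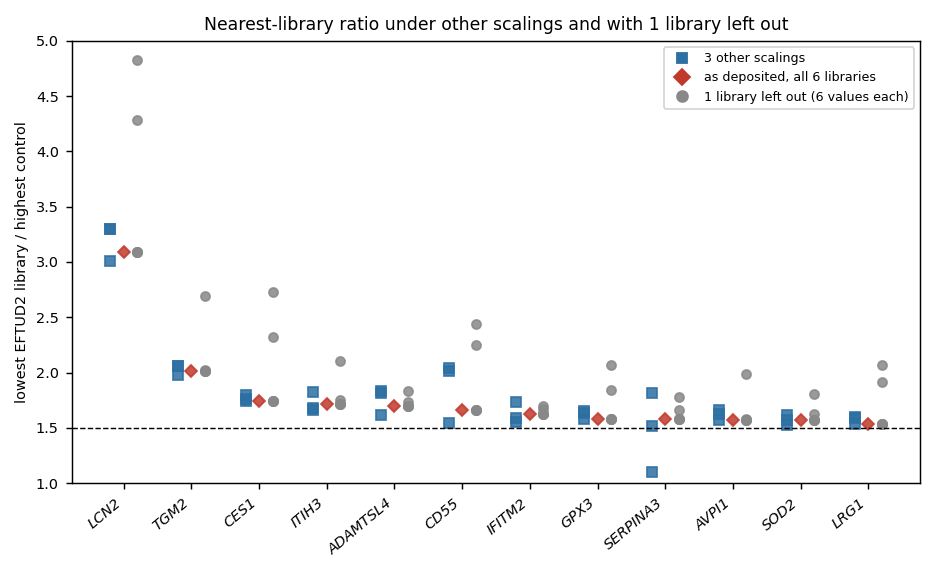
Lowest EFTUD2 library divided by the highest control (vertical) for each gene as deposited (red), under the 3 other scalings (blue) and with each library left out (grey), with the threshold of 1.5 dashed. The blue square below the line is SERPINA3 under quantile scaling, at 1.10, and every other symbol lies above it. A grey symbol cannot lie below the red one, since leaving out a library cannot lower this ratio.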

How the data were processed

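The authors deposited 1 table of FPKM values per gene and library, rounded to 2 decimals, from poly-A selected RNA sequenced on the BGISEQ-500 platform. The submitters' processing notes name HISAT2, Bowtie2, RSEM, DESeq2 and the build hg38, with no role or version. The annotation is not given in the sources used here, and the table holds no counts, which leaves the sequencing depth unknown and counting intervals out of reach. The table has 23524 rows, 18762 under NCBI gene numbers (18449 matched to RefSeq symbols) and 4762 under identifiers of the sequencing provider. Of the provider rows, 284 had a control mean of at least 5 FPKM, and 3 of these met the rule and 4 the mirrored rule, outside the counts of the report.

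From the deposited FPKM values, members were counted by the rule in Python 3.11.15 (pandas 2.3.3, numpy 2.4.6). All rows with a mean of at least 0.1 FPKM were fitted with limma 3.58.1 (lmFit, eBayes with trend) in R 4.3.3 on log2(FPKM + 1), adjusting over 17224 genes, a scale that understates the change of low genes. The test was checked on simulated data with independent noise and a change larger than that of every member except LCN2. That check does not cover smaller changes or a library that stands apart. Alternatives were other scalings, each library left out, other floors (1 and 10 FPKM), factors (1.2 and 2), pseudocounts (0.1 and 0.01) and filters, robust empirical Bayes and the replicate number as a block. Counts of genes apart between groups were also made under the scalings and without each library, an alternative chosen after seeing the data.

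The members, lists and motifs were chosen with earlier results of these data known, and the relatives after the members were seen, with IFITM1, C4BPA and C4BPB added last. The named-gene rule covers all 12 members and the 4 genes just outside the threshold. Other genes are named after their values were seen. Transcripts for the primers came from GENCODE release 29, and figures were drawn with matplotlib 3.10.9.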

Additional observations from a re-analysis of the deposited data

How the results depend on the processing

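The number of genes meeting the rule, 12 as deposited, was 28 with a floor of 1 FPKM, 50 with a factor of 1.2 and 2 with a factor of 2 (LCN2 and TGM2). The mirrored rule, with 13 genes, gave 32, 176 and 6 under the same settings. With each library left out in turn, the rule gave 13 to 31 genes, and the 12 members were among them each time. It gave 25 without control replicate 3, 22 without EFTUD2 replicate 1 and 31 without EFTUD2 replicate 3. Leaving out a library cannot lower the nearest-library ratio of a member, so only the control floor could have removed one. The mirrored rule then gave 17 to 25 genes, and the median log2 ratio of the members, 1.18, ran from 1.12 to 1.36. SERPINA3 no longer met the rule under quantile scaling, with a nearest-library ratio of 1.10, and the cause was not tested. ADAMTSL4 and CD55, with control means of 9.97 and 8.41 FPKM, fell under a floor of 10 FPKM. The log2 ratio of single members kept its direction in all 108 alternatives, from 0.80 to 2.92. With a library left out the direction could not change, since the rule put every EFTUD2 library above every control.

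Limma called 0 genes in every fit except without EFTUD2 replicate 3, where it called 167, so leaving out 1 library gave 0 to 167. With the replicate block it called 0 genes. The numbers were not used as pairs, since the correlations of same-numbered deviations were -0.30, 0.35 and -0.09. With 3 libraries per group and no read counts, small differences cannot be resolved.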
